A study of Mus musculus with 2 samples.

Results

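The genes described here are 10 genes of hepatic iron handling, chosen by name from the annotation of the array: Hamp, Hamp2, Tfrc, Tfr2, Slc40a1, Ftl1, Fth1, Trf, Cp and Hfe. They are 10 of 30142 genes named on the arrays, and all 10 passed the floor on signal that 15023 genes passed. RNA was measured in hepatocyte areas cut by laser from the livers of untreated PiZ mice, 3 months old and kept on standard chow. Both groups come from C57BL/6 mice transgenic for the human gene and promoter of ATZ, the Z mutant of alpha-1-antitrypsin, which polymerises in hepatocytes and collects as globules. One group is globule-containing areas and the other is globule-free areas, told apart by their look after Cresyl Violet staining. Each group is 1 array of RNA pooled from 2 mice, with 50 ng of RNA used for labelling. The labels do not state whether the same 2 mice gave both pools. With 1 array per group there is no replicate check and no test, so each value compares 1 array with 1 array, and no error of a single gene can be given. Genes that differ by 2-fold or more are called higher or lower in the areas with globules. No mice without the transgene were measured, so both groups carry ATZ.

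The liver stores iron and sets its supply to the rest of the body. Hepatocytes take up iron bound to transferrin through the transferrin receptors and keep it in ferritin. They secrete hepcidin, the hormone that removes the iron exporter ferroportin from the surface of cells. Hepcidin transcription rises with iron through the ligand BMP6, the coreceptor hemojuvelin, HFE and transferrin receptor 2, which act on SMAD factors, and with inflammation through interleukin-6 and STAT3. Iron regulatory proteins bind hairpins called iron responsive elements in the mRNAs of ferritin, ferroportin and transferrin receptor 1, and so adjust their translation or stability.

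Mice have a pair of neighbouring hepcidin genes, Hamp and Hamp2, of which Hamp encodes the hormone that regulates iron. Their upstream sequences are shown because the Hamp window carries the elements through which BMP and STAT signals act on hepcidin, and the Hamp2 window shows how its paralog differs there. The 250 bases before each annotated start are given 5′ to 3′ on the gene's strand, from RefSeq on GRCm38.p6. Capitals mark GGCGCC, the core of the BMP response element, and TTCNNNGAA, the STAT site, and in Hamp2 the bases that line up with them.
Hamp (chr7:30944030-30944279, minus strand): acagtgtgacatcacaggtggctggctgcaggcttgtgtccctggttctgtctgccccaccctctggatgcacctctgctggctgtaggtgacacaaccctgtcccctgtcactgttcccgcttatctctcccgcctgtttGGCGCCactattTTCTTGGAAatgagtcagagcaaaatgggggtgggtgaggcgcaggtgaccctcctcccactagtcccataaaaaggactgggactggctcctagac
Hamp2 (chr7:30924182-30924431, minus strand): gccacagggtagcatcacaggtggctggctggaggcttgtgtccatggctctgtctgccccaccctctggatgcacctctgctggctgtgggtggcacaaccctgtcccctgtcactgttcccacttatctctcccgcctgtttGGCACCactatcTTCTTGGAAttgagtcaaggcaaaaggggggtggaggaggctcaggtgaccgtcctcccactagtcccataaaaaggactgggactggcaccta

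The windows of Hamp and Hamp2 lined up over 247 positions, of which 227 (91.9%) were identical and 20 were substitutions. Hamp held GGCGCC, whose first base lies 109 bases before the start. At the bases of Hamp2 that line up with it, the sequence was GGCACC, the substitution G4A counted from 1 at the 5′ end of the element. Both windows held the same STAT site, TTCTTGGAA, 97 bases before the start of Hamp and 94 before that of Hamp2. Searched on both strands, GGCGCC occurred in 9.59% and TTCNNNGAA in 7.02% of all 32851 promoter windows of this length. A match describes the letters only. RefSeq windows were listed for 8 of the 10 genes, and the others are Slc40a1 and Trf. Besides Hamp, only Tfrc held GGCGCC, in 1 of its 2 windows, and no other gene than Hamp and Hamp2 held TTCNNNGAA. The antioxidant response element core TGANNNNGC, found in 35.2% of all windows, occurred in Hfe alone among the 8.

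Among the 10 iron genes, Tfr2, the sensor of transferrin-bound iron on hepatocytes, was the only one called, and it was lower in areas with globules. Slc40a1, which encodes the iron exporter ferroportin, was also lower and lay at the edge of 2-fold. The hepcidin genes, transferrin and ferritin light chain had signals at or near the top of the scale on both arrays, where no difference can be read. The other 4 genes lay within 1.37-fold. Across all genes above the floor, 11.7% were called, 6.47% as higher and 5.26% as lower in areas with globules. Of the 6 iron genes whose difference can be read, 1 was called lower with the deposited values and 2 under each of the 4 other scalings run, since Slc40a1 then passed 2-fold. With so few readable genes, nothing is read from these counts beside the share of all genes. The median log2 difference of the 6, globule-containing minus globule-free, was -0.08 with 3 above 0, against 0.05 for all genes above the floor. Over all 10 the median was 0.08, and it lay below 0 under each of the 4 other scalings, from -0.25 to -0.01.

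**Figure D1:**
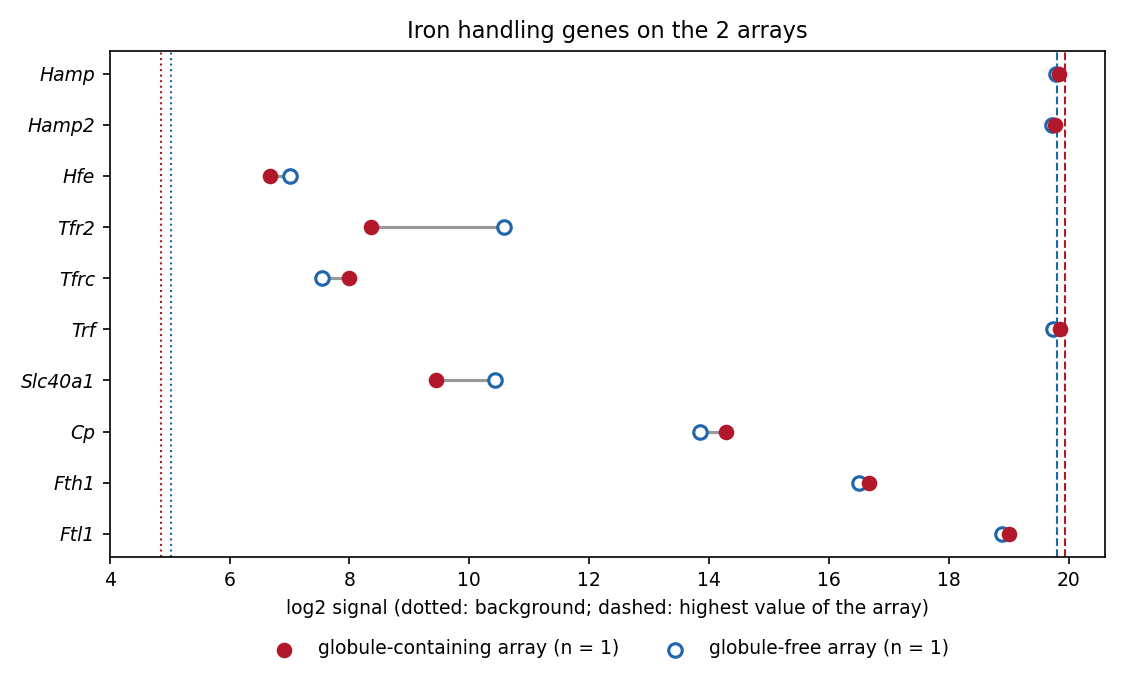
Log2 signal (horizontal axis) of the 10 iron genes on the globule-containing array (filled red) and on the globule-free array (open blue), with 1 array per group. Dotted lines mark the background level and dashed lines the highest value of each array in the same colours. Tfr2 and Slc40a1 lie left of their globule-free values, while Hamp, Hamp2 and Trf sit at the top of the scale on both arrays.

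Hamp and Hamp2 encode the hepcidin peptides. Hamp (probe set TC0700002783.mm.1) had a log2 signal of 19.84 in areas with globules and 19.79 in areas without. Hamp2 (TC0700002781.mm.1) had 19.77 in areas with globules and 19.72 in areas without. The highest value of any probe set was 19.93 on the globule-containing and 19.80 on the globule-free array, so both genes lay within 0.2 of the top on both arrays and were taken as saturated. Their differences of 0.05 (Hamp) and 0.04 (Hamp2) therefore say nothing of a change in hepcidin RNA in either direction. Each probe set names 1 gene, and whether transcripts of the paralogs share its probes was not tested.

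Tfr2 (TC0500001629.mm.1) encodes transferrin receptor 2, which binds iron-loaded transferrin and takes part in the signal to hepcidin. Its log2 signal was 8.36 in areas with globules and 10.58 in areas without, 4.68-fold lower, and well inside the measured range of both arrays. Of the 15023 genes above the floor, 1.02% had a lower difference. Tfr2 stayed more than 4-fold lower under each of the other scalings run, with log2 differences from -2.36 to -2.31. Fewer cells that carry a transcript and less of it per cell cannot be told apart in such areas. Genes that mark periportal hepatocytes were lower on the same array: of 9 with a signal above the floor, 8 were called lower and none higher, and their mean log2 signal was 11.34 in globule-containing areas (from 5.57 to 16.48) and 14.25 in globule-free areas (from 7.23 to 18.85). Their part in the Tfr2 value was not tested.

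Hfe (TC1300001641.mm.1) encodes the MHC class I-like protein that is altered in the common form of human hereditary haemochromatosis. Its log2 signal was 6.67 in areas with globules and 7.01 in areas without, 1.26-fold lower and within 2-fold. Both values lay above background, set at 4.85 on the globule-containing and 5.02 on the globule-free array, the 95th percentile of probe sets for odorant and vomeronasal receptors.

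Trf (TC0900003344.mm.1) encodes transferrin, the iron carrier of plasma. It had 19.85 in areas with globules and 19.73 in areas without, again within 0.2 of the top of both arrays, and no fold is given. Tfrc (TC1600000447.mm.1), which encodes transferrin receptor 1, the main route of transferrin iron into most cells, had 7.98 in areas with globules and 7.54 in areas without, 1.37-fold higher. The receptors thus had differences of opposite sign, with -2.23 for Tfr2 and 0.45 for Tfrc, of which only Tfr2 passed 2-fold.

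Slc40a1 (TC0100002285.mm.1) encodes ferroportin, the only known iron exporter of mammalian cells, found on macrophages and hepatocytes. Its log2 signal was 9.44 in areas with globules and 10.43 in areas without, 1.99-fold lower. After both arrays were centred on their medians the difference was -1.10, after quantile normalization -1.10, after loess correction -1.09 and with both arrays set to the same highest value -1.12, all past 2-fold. Markers of resident Kupffer cells, the liver macrophages that recycle iron from red cells, were lower on the same array. Of 7 with a signal above the floor, 5 were called lower and none higher, and their mean log2 signal was 6.96 in globule-containing areas (from 5.13 to 9.23) and 8.60 in globule-free areas (from 6.67 to 11.67). Cd163, the haemoglobin scavenger receptor in this list, lay at background on both arrays. Other markers of macrophages and monocytes moved the other way, with 9 of 12 called higher and none lower. The part of these cells in the Slc40a1 value was not tested.

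Cp (TC0300000137.mm.1) encodes ceruloplasmin, the copper-containing ferroxidase of plasma that oxidises iron after export. It had 14.28 in areas with globules and 13.85 in areas without, 1.34-fold higher. Its log2 difference stayed positive under every scaling run and fell to 0.17 after loess correction.

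Ferritin stores iron in a shell of heavy and light chains, encoded by Fth1 and Ftl1. Fth1 (TC1900000183.mm.1) had 16.67 in areas with globules and 16.50 in areas without, 1.13-fold higher. The sign of this difference depended on the scaling, with -0.14 after quantile normalization and -0.11 after loess correction. Ftl1 (TC0700003006.mm.1) had 19.01 in areas with globules and 18.88 in areas without. Its log2 difference of 0.13 equals the difference between the highest values of the arrays, and 10 of the 116 genes with a mean log2 signal of 18 or more had that same difference within 0.001, so no fold is given. A further 2 probe sets name Ftl1 together with other genes, and both lay at the top of the scale on both arrays. The Ftl1 probe set also lists Entrez IDs of ferritin light chain pseudogenes, whose transcripts could share its signal.

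**Figure D2:**
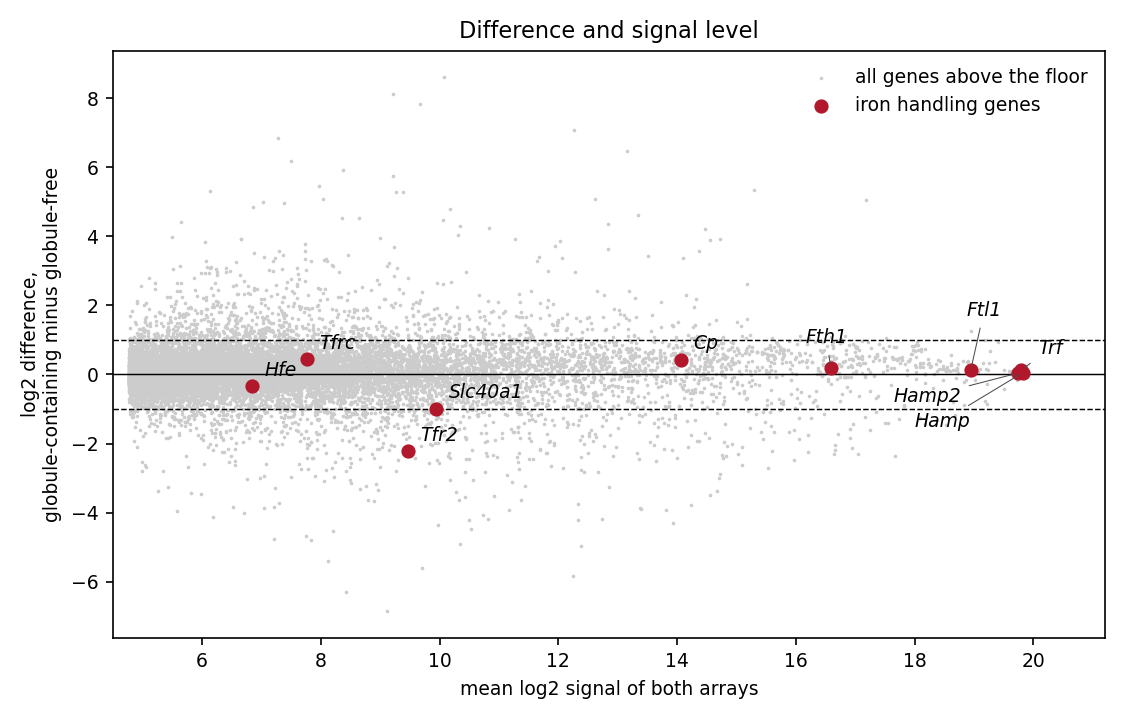
Log2 difference, globule-containing minus globule-free (vertical axis), against the mean log2 signal of both arrays (horizontal axis) for the 15023 genes above the floor (grey) and the 10 iron genes (red). Dashed lines mark 2-fold. The iron genes with a mean signal of 18 or more sit where the grey cloud is narrow, while Tfr2 lies below the lower line and Slc40a1 on it.

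The share of genes called differed with the signal level, with the limits of each level set after the values were seen. At a mean log2 signal of 18 or more, which holds Hamp, Hamp2, Trf and Ftl1, 7 of 116 genes (6.03%) were called. Between 8 and 12, which holds Tfr2 and Slc40a1, 635 of 3486 genes (18.2%) were called, 319 (9.15%) of them as lower. The plot of difference against signal level shows this narrowing at the top.

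The wider iron pathway was described with 11 lists by role, which hold 105 genes besides the 10. Of these, 82 had a signal above the floor, 10 of them called higher and 8 called lower in areas with globules. Shares for all genes were 6.47% higher and 5.26% lower. Higher calls did not outnumber lower ones among all genes under every scaling. Higher against lower calls were 972 against 790 as deposited, 789 against 990 after centring on the medians and 850 against 962 after quantile normalization. They were 846 against 963 after loess correction and 748 against 1036 with the arrays set to the same highest value. Among the 82 iron pathway genes, 8 were higher and 8 lower after centring, after quantile normalization and after loess correction. With the same highest value, 7 were higher and 9 lower.

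The list of the BMP6 and hemojuvelin arm of hepcidin control had a median log2 difference of 0.00 over 18 genes above the floor, Hamp, Hamp2, Tfr2 and Hfe among them. That median lies between the values of Hjv and of Hamp2, which was taken as saturated, and is not read further. Called lower were Tfr2 and Fgl1, a secreted liver protein reported in mice to restrain hepcidin, with 11.44 in areas with globules and 15.31 in areas without, 14.7-fold lower. Bmpr1a, a type I BMP receptor used in the hepcidin signal, was 2.13-fold higher, at 9.12 against 8.03. The Bmpr1a difference fell to 0.99 after centring and to 0.96 with the arrays set to the same highest value, below 2-fold. Bmp6, the iron-induced ligand made by endothelial cells, had 5.54 in areas with globules and 5.75 in areas without. Hjv, which encodes hemojuvelin, had 7.48 against 7.52, and Tmprss6, the protease that cleaves hemojuvelin and restrains hepcidin, 9.51 against 10.20.

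Of 6 target genes of BMP and SMAD signalling, 1 was called higher and 1 lower, 5 had differences above 0, and the median difference was 0.35. Id1, a SMAD target induced by iron in liver, had 5.29 in areas with globules and 6.32 in areas without, 2.05-fold lower. The globule-containing signal of Id1 lay near that array's background of 4.85. Id3 was 2.01-fold higher, at 7.08 against 6.07, and fell below 2-fold under all 4 other scalings. Id2 had 12.78 in areas with globules and 12.15 in areas without, and Atoh8, a transcription factor of the hepcidin pathway, 7.16 against 6.65, both within 2-fold. Smad7, which feeds back on the pathway, had 5.74 against 5.58, and Smad6 5.79 against 5.60. In the interleukin-6 and STAT3 arm, none of the 7 genes above the floor was called with the deposited values, and their median was -0.61. Stat3 had 7.85 in areas with globules and 8.53 in areas without. The interleukin-6 receptor chain Il6ra had 6.21 against 7.10, 1.85-fold lower, and the shared chain Il6st 12.85 against 11.89, 1.95-fold higher. With the arrays set to the same highest value Il6ra passed 2-fold, at a log2 difference of -1.02. Il6 and Socs3, a STAT3 target, lay at background on both arrays.

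Among genes of iron uptake, 3 of 12 above the floor were called lower and 1 higher, with a median of 0.07. That median lies between Trf, at the top of the scale, and Slc22a17, at background on both arrays, and is not read as a shift. Besides Tfr2, the lower genes were Slc39a14 and Lrp1. Slc39a14, the transporter ZIP14 that brings iron not bound to transferrin into hepatocytes, had 8.29 in areas with globules and 9.40 in areas without, 2.16-fold lower. Lrp1, the receptor for the complex of haem and hemopexin, was 2.22-fold lower, at 10.76 against 11.91. Lcn2, lipocalin 2, which binds iron-loaded siderophores, was the gene called higher, at 12.34 against 8.29. Neutrophils also carry Lcn2, and of 5 neutrophil markers above the floor 2 were called higher and none lower, with a mean log2 signal of 7.83 in globule-containing areas (from 5.35 to 11.34) and 5.66 in globule-free areas (from 5.07 to 6.37). These 2 were S100a8, 60.7-fold higher, and S100a9, 23.2-fold higher, while Ngp and Ltf of the neutrophil granules lay at background on both arrays. The globule-free signal of S100a8 was 5.42, near the background of 5.02. The other 3 above the floor, Camp, Ly6g and Cxcr2, lay within 2-fold, and the list median was 0.27. The part of neutrophils in the Lcn2 value was not tested. Slc11a2, the iron transporter DMT1, had 7.92 in areas with globules and 7.07 in areas without, within 2-fold. Steap3, the ferrireductase of the transferrin cycle, had 6.17 against 6.04.

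For iron export and oxidation, 5 of 8 genes passed the floor and none was called, Slc40a1 and Cp among them. Heph and Hephl1, the membrane-bound relatives of ceruloplasmin, lay at background on both arrays. For storage, 7 of 8 genes passed the floor and none was called. Ncoa4, the receptor that takes ferritin to the lysosome, had 9.43 in areas with globules and 10.26 in areas without, 1.78-fold lower and within 2-fold. Pcbp1, a chaperone that delivers iron to ferritin, had a log2 difference of -0.04.

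Both iron regulatory proteins had lower signals in globule-containing areas. Ireb2, iron regulatory protein 2, had 8.51 in areas with globules and 9.77 in areas without, 2.39-fold lower. Aco1, iron regulatory protein 1 and cytosolic aconitase, had 10.38 against 11.38, 2.00-fold lower. Fbxl5, the iron-sensing ligase subunit that marks Ireb2 for degradation, had 7.11 against 6.36 and was within 2-fold. These are 2 lower genes of 5 above the floor in this list, with a median of 0.10. Of 10 mRNAs above the floor listed with an iron responsive element, 1 was called lower and none higher, with a median of -0.17. It was Hao1, the glycolate oxidase of liver peroxisomes, at 9.67 in areas with globules and 12.59 in areas without, 7.59-fold lower. The list median lies between the values of Sdhd and of Ftl1, and no difference can be read for Ftl1. Of the 10, 5 had differences above 0 and 5 below. Those above were Fth1, Ftl1, Tfrc with 0.45, Slc11a2 with 0.84 and Cdc42bpa with 0.40. Of mRNAs with the element before the coding region, ferritin Fth1 had a log2 difference of 0.18, whose sign turned after quantile normalization and loess correction, Slc40a1 -0.99, the hypoxia factor Epas1 -0.50 and Alas2, the erythroid enzyme of haem synthesis, -0.71.

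**Figure D3:**
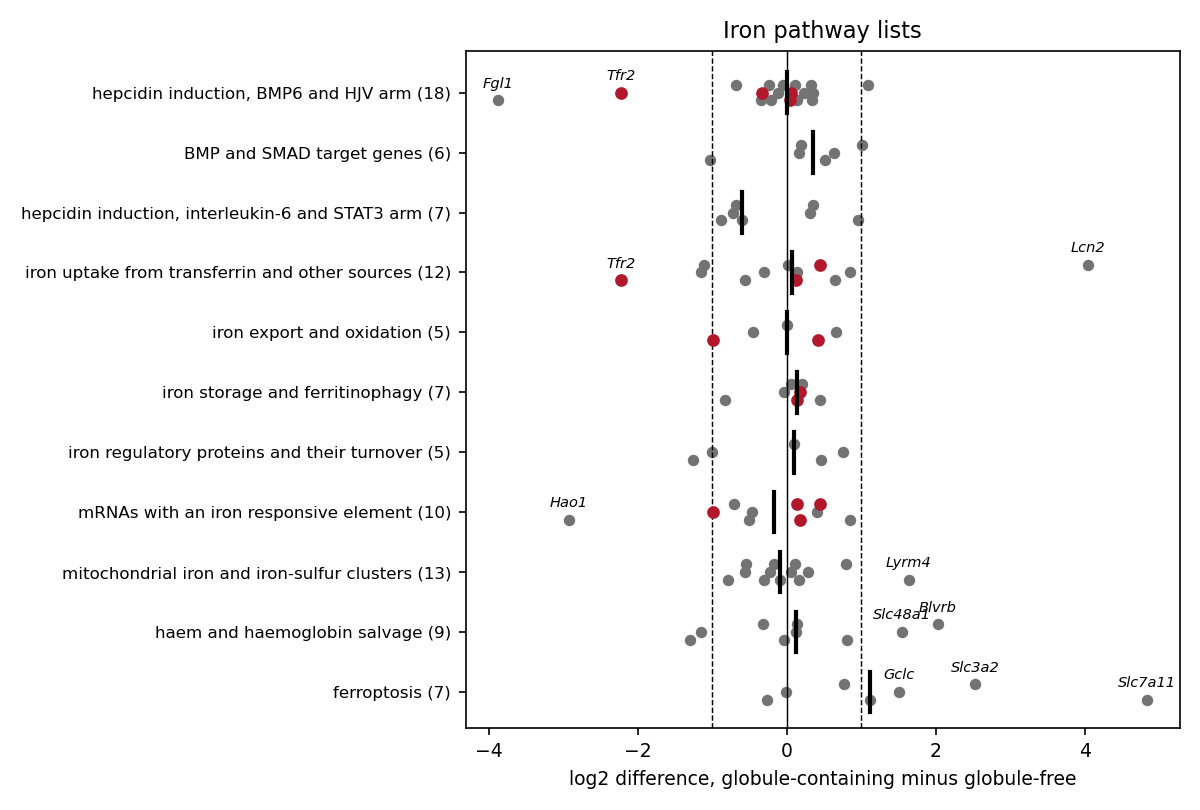
Log2 difference, globule-containing minus globule-free (horizontal axis), of each gene above the floor in 11 iron pathway lists, with the number of genes in brackets. Red points are the 10 iron genes, grey points the other genes and black bars the list medians, and dashed lines mark 2-fold. Genes more than 1.5 log2 units apart are named, with Fgl1, Hao1 and Tfr2 on the lower side and Lcn2 and Slc7a11 farthest on the higher side.

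Genes of haem and haemoglobin salvage went both ways, with 2 of 9 called higher, 2 called lower and a median of 0.12. Blvrb, a biliverdin reductase, had 10.20 in areas with globules and 8.17 in areas without, 4.06-fold higher. Slc48a1, the haem exporter of lysosomes HRG1, was 2.92-fold higher, at 10.90 against 9.35. Hrg, the haem-binding plasma protein histidine-rich glycoprotein, was 2.46-fold lower, at 17.09 against 18.39. Hmox1, haem oxygenase 1, which frees iron from haem, had 9.77 in areas with globules and 8.95 in areas without, 1.76-fold higher and within 2-fold. Hpx, which encodes hemopexin, and Hp, which encodes haptoglobin, had differences of 0.12 and 0.13 near the top of the scale. The list median is the Hpx value, so it is not read as a shift.

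For mitochondrial iron and iron-sulfur clusters, 12 of 13 genes lay within 2-fold, with a median of -0.09. The exception was Lyrm4, the small partner of the cysteine desulfurase, which had 10.85 in areas with globules and 9.21 in areas without, 3.11-fold higher. Nfs1, the desulfurase itself, had 7.05 against 7.84. Slc25a37, mitoferrin 1, had 6.76 against 6.85, and Slc25a28, mitoferrin 2, the importer of mitochondrial iron outside the erythroid line, 6.15 against 5.36.

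The areas held hepatocytes on both arrays. Alb, which encodes albumin, had 19.90 in areas with globules and 19.80 in areas without, at the top of both. Of 8 hepatocyte markers, 3 were called lower and none higher. These were Tat, Cps1 and Pck1, of which Cps1 and Pck1 are also counted among the periportal markers. Stellate cell and fibroblast markers were called higher for all 8 genes above the floor, with a mean log2 signal of 9.46 in globule-containing areas (from 6.37 to 15.22) and 6.95 in globule-free areas (from 4.97 to 11.80). The mean for macrophages and monocytes was 10.70 in globule-containing areas (from 5.30 to 17.96) and 7.90 in globule-free areas (from 4.68 to 12.62). Markers of liver endothelial cells, which make Bmp6, had a median of -0.01, with 9 of 10 within 2-fold. Pericentral hepatocyte markers had a median of 0.50, with 2 of 9 called higher and none lower. That median is the value of Axin2, whose globule-free signal of 4.75 lay at background, so it is not read as a shift. Haemoglobin was detected on both arrays by 4 probe sets that name several globin genes, with differences between 0.28 and 0.79. Of the 4 erythroid markers with a probe set of their own, Epb42 and Slc4a1 lay at background on both arrays. Alas2 had 7.62 in areas with globules and 8.34 in areas without, and the erythroid factor Klf1 5.25 against 5.07, near background. Whether these cells bear on the iron genes was not tested beyond the values given here.

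**Figure D4:**
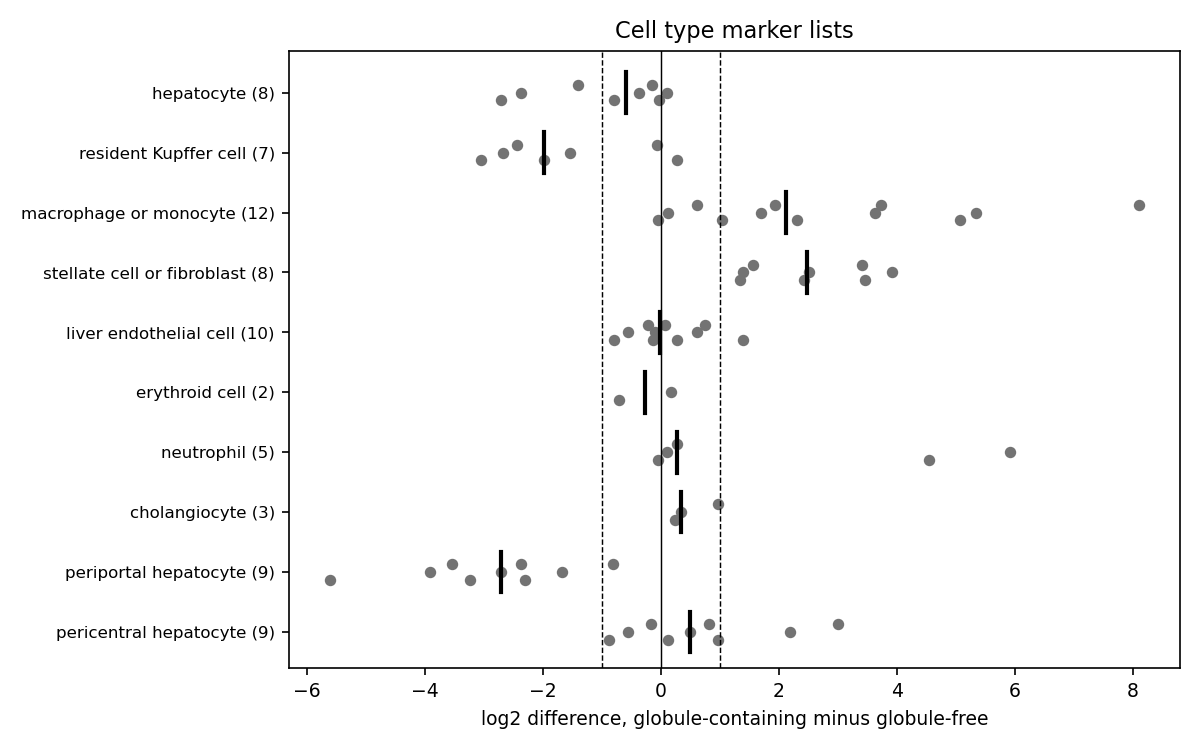
Log2 difference, globule-containing minus globule-free (horizontal axis), of the markers above the floor of 10 cell types or lobular positions, with the number of genes in brackets. Points are genes, black bars list medians and dashed lines 2-fold. Periportal and resident Kupffer markers lie mostly below 0, and macrophage and stellate cell markers mostly above it.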

How the data were processed

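Per the labels, RNA was isolated with a Pico Pure kit and labelled by NuGen's Ovation WTA System V2. The authors deposited log2 signals for 72688 probe sets, made with the Transcriptome Analysis Console per the submitters' processing notes. The log2 scale was read from the values. The sources used here name no background correction, normalization or genome build. Signals at the top of the scale are compressed, and the number of arrays limits the precision.

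Of the probe sets, 30604 named 1 gene, 2146 named several, which were left out, and 39938 had none listed. Entrez IDs matched a RefSeq table for 22818 and updated 827 symbols. Values of a gene with several probe sets were averaged. The floor on the mean log2 signal, 4.76, was the median of all probe sets with 1 gene. It lies below the background of both arrays, 4.85 and 5.02, so genes counted above the floor can be at background, such as Slc22a17. Background came from 1530 receptor probe sets. Values within 0.2 of an array's highest were taken as saturated.

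No test was possible with 1 array per group. Genes at least 2-fold apart were counted, with no p-values. Alternatives were scaling, floor, threshold, choice of probe set and dim values, and 2 were chosen after seeing the data. The members, lists and named genes (all 10 members, and in each list genes by role with the largest past 2-fold) were chosen with earlier results of these data known. Counting was tested on simulated data. Python 3.11.15, numpy 2.4.6, pandas 2.3.3 and statsmodels 0.14.6 were used.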

Additional observations from a re-analysis of the deposited data

How the results depend on the processing

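No paired analysis was possible because each group is 1 array. Arrays give no depth, and signals near the top or at background limit what can be read. A value was taken to have moved when it shifted by 0.17 or more on the log2 scale, the median gap between the differences of 2 probe sets of 1 gene over 177 genes. Centring moved the median of all genes by -0.10 and setting the arrays to the same highest value, chosen after seeing the data, by -0.13. Each member has 1 probe set above the floor, so mainly the scaling could move its difference. Under the 4 other scalings 8 of 40 member differences moved. Loess correction gave -0.28 for Hamp, -0.29 for Hamp2, -0.19 for Ftl1, -0.11 for Fth1, -0.21 for Trf and 0.17 for Cp, and quantile normalization -0.14 for Fth1 and 0.22 for Cp. The median over the members was -0.25 after loess correction. The number of members past the threshold and lower was 2 after centring, quantile normalization, loess correction, with the same highest value and at 1.5-fold, since Slc40a1 joined Tfr2. Among all genes, 642 were higher with the floor at the 75th percentile, 2406 were higher and 1786 lower at 1.5-fold, and 213 and 198 at 4-fold. Of the list medians, 5 of 44 moved under the other scalings. After loess correction the BMP6 and hemojuvelin arm had -0.21, storage -0.11, mRNAs with an iron responsive element -0.38 and haem salvage -0.19, and after quantile normalization the responsive element list had -0.36. With the floor at the 75th percentile the medians were 0.57 for BMP and SMAD targets, -0.15 for the interleukin-6 arm, 0.28 for uptake, 0.21 for export and 1.31 for ferroptosis. With no floor they were -0.29 for the interleukin-6 arm and 0.38 for ferroptosis. With probe sets naming several genes included, the list of iron regulatory proteins had 0.28. The causes were not tested.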

Other observations

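Genes of ferroptosis, the death of cells by iron-dependent lipid peroxidation, differed by 2-fold or more for 4 of 7 genes above the floor, and all 4 were higher in globule-containing areas. The median was 1.11, against 0.05 for all genes above the floor, of which 6.47% were at least 2-fold higher. Slc3a2 and Slc7a11 form the cystine importer. Slc3a2 had 9.96 in areas with globules and 7.43 in areas without, 5.77-fold higher. Slc7a11 had 9.27 against 4.43, at least 19.1-fold higher over a globule-free signal at background. Slc7a11 passed the floor, set on the mean of both arrays, only through its globule-containing signal. The share of genes called in this list and its median thus depend in part on the floor. With no floor the median was lower, as given above. Gclc, the catalytic subunit of the enzyme that joins glutamate and cysteine on the way to glutathione, was 2.84-fold higher, at 14.76 against 13.25. Its partner Gclm is not among the 7, since its probe set also names Gm6061, and that probe set had 11.61 against 11.50. Acsl4, which loads polyunsaturated fatty acids into lipids, was 2.16-fold higher, at 12.11 against 11.00, and fell below 2-fold under 3 of 4 other scalings. Gpx4, the enzyme that reduces lipid peroxides, had 7.31 in areas with globules and 6.54 in areas without, within 2-fold. The list holds genes that promote the process and genes that restrain it, so its count and median give the process no direction. Chac1 and Ptgs2, often used as markers of the process, lay at background on both arrays, as did Alox15. None of them is among the 7.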
